A study of Zea mays with 16 samples.

Results

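The stomata of grasses consist of a pair of guard cells, which border the pore, and a pair of flanking subsidiary cells. The described comparison asks whether a gene's difference between day and night was unlike in these cell types. It was computed as the day minus night change in guard cells minus the day minus night change in subsidiary cells, called the interaction below. All 16 of the 16 libraries of the series entered it. They form 4 groups of 4 libraries, with a day group and a night group for each cell type. The cells came from leaf number 3 of 2-week-old seedlings of the maize inbred line B104, grown under a light period of 16 h (25 °C) and a dark period of 8 h (22 °C). Day samples were taken 2 h after lights on and night samples 2 h after lights off, in 4 independent collections. A sample pooled 2 tubes of about 1500 cells cut out by laser microdissection, no genotype or treatment set the groups apart beside cell type and time, and aquaporins in stomatal movement are the subject that the title of the series gives.

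Stomatal pores widen when guard cells take up potassium and other solutes, draw in water and swell, while subsidiary cells give up solutes and water. At closure the flow turns round. Proton pumps energise the solute transport, aquaporins are the channels through which water crosses the membranes, and the light period also drives the photosynthetic genes of green cells.

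Libraries held 16.6 to 28.9 M recovered reads. The mean Spearman correlation with the other libraries was lowest in guard night replicate 4 (0.648) and subsidiary day replicate 1 (0.676), called the libraries of low correlation below, while the remaining libraries lay between 0.713 and 0.764. The deposited description was available as 1 word per gene, for 7467 of the 37759 genes tested, so that descriptions identify gene families and not single genes, and single guard cell or subsidiary cell marker genes could not be checked against the labels. In these pooled samples fewer cells of a type and less RNA per cell cannot be told apart. All levels below are normalized counts, and all changes are differences of mean log2(normalized count + 1) with their standard error.

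No gene passed the limma test of the interaction at an adjusted p under 0.05 (0 of 37759 genes, percent called 0), and the lowest adjusted p was 0.0659. The label of the comparison, a day to night change differing between cell types, was therefore not borne out for any single gene by this test. An unadjusted p under 0.05 was reached by 2533 genes (6.71%), 1520 with an interaction above 0 (4.03%) and 1013 with an interaction below 0 (2.68%). Above 0 means a change toward day that was larger, or a change toward night that was smaller, in guard cells. It also covers a change toward day in guard cells beside one toward night in subsidiary cells, the case for 1235 of the 1520. edgeR's quasi-likelihood test on the recovered reads called 1 gene (0.00265%), and DESeq2 called 149 (0.395%), 93 above 0 and 56 below. The DESeq2 calls include genes of low level whose interaction was far larger with DESeq2 than with limma. Zm00001d041164 (mean log2 of 3.85) had −22.9 with DESeq2 and −1.95 with limma. Zm00001d027681 (mean log2 of 4.02) had −21.1 with DESeq2 and −0.12 with limma. The sign was the same with both tools for 148 of the 149. Of these 149 genes 131 had an unadjusted limma p under 0.05, and 112 had changes of opposite sign in the cell types, as did 43.7% of all genes.

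The split by sign of the genes with an unadjusted limma p under 0.05 moved with the scaling of the libraries. With upper-quartile scaling 1201 of 2530 nominal genes lay above 0 and 1329 below, and the median interaction over all genes moved from 0.03 to −0.12. At an unadjusted p under 0.001, 94 genes remained (0.249%), 75 above 0 and 19 below, and with upper-quartile scaling the split at that threshold was 61 above and 28 below. Of the 75 genes above 0, 59 had changes of opposite sign, and the medians were 2.01 (guard) and −1.95 (subsidiary). Of the 19 below 0, 15 had changes of opposite sign, with medians of −1.60 and 3.32. Opposite signs are partly fixed by choosing genes for a large interaction.

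The precision of the interaction bears on these counts. Its standard error had a median of 1.03 over all genes on the log2 scale, 0.62 in the upper quartile of genes by mean level and 1.87 in the lower quartile. The 95% interval of a typical gene reached 2.17 to either side of its value.

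Each cell type taken alone did have genes that differed between day and night. In guard cells 327 genes were called (0.866%), 282 higher by day (0.747%) and 45 higher by night (0.119%). In subsidiary cells 461 were called (1.22%), 254 higher by day (0.673%) and 207 higher by night (0.548%). Both cell types shared 109 of these calls, 93 higher by day and 16 higher by night, or 33.3% of the guard cell list and 23.6% of the subsidiary cell list, and 0 genes were called in opposite directions. Among the 679 genes called in either cell type, 328 had an unadjusted interaction p under 0.05, and none passed the adjusted test. A call in a single cell type was thus not shown to be a difference between cell types.

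Most genes called in a cell type had a smaller change of the same sign in the other. Of the 282 genes higher by day in guard cells, 249 had the same sign in subsidiary cells, and the median change was 2.97 in the former and 1.58 in the latter. Of the 207 genes higher by night in subsidiary cells, 178 had the same sign in guard cells, with medians of −2.96 in subsidiary cells and −1.12 in guard cells. A change under 0.5 in the other cell type was seen for 43 of the 327 guard cell calls and 66 of the 461 subsidiary cell calls. The smaller median in the cell type that did not choose the genes is partly fixed by that choice.

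Opposite changes were few beside shared ones. An unadjusted p under 0.05 in both cell types was reached by 904 genes in the same direction and by 82 in opposite directions, 59 of them higher by day in guard cells and 23 higher by night. The 4 day and 4 night libraries did not overlap for 2155 genes in guard cells (5.71%) and 3337 in subsidiary cells (8.84%). In both cell types at once they did not overlap for 438 genes that differed in the same direction and for 12 that differed in opposite directions. Across genes the changes in the cell types correlated at a Pearson r of 0.21, and at 0.46 in the upper quartile by mean level, a description over genes that share the same libraries.

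**Figure D1:**
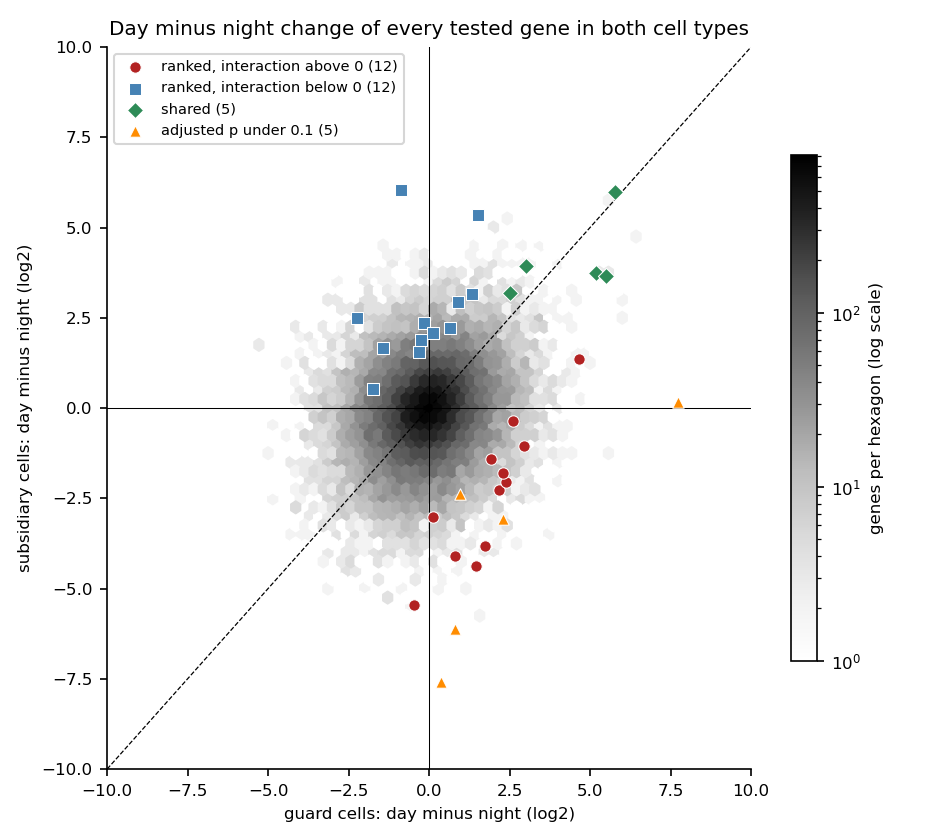
The day minus night change (log2) of each of the 37759 tested genes in guard cells (x axis) is plotted against that in subsidiary cells (y axis), with darker hexagons holding more genes on a log scale. Coloured points mark the ranked genes, the genes shared by both cell types and the 5 genes with an adjusted interaction p under 0.1, and a gene with equal changes lies on the dashed line.

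The authors' deposited table, which holds their own tests within each cell type and none of the interaction, gave 1105 genes at an adjusted p under 0.05 in guard cells and 1347 in subsidiary cells. Both lists of the authors' deposited table shared 293 genes, 290 in the same direction and 3 in opposite directions. These 3 include Zm00001d038907, described next, and the deposited changes of the other two were close to 0 on the authors' shrunken scale.

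The 5 genes with an adjusted interaction p under 0.1 all had an interaction above 0. They fall outside the naming rule and were picked with their values in view, 4 of them have no description, and DESeq2 called all 5. The described gene among them was Zm00001d005146, with the word PVR3-like. Its levels were 1282, 755, 913 and 1494 in the guard day libraries and 1.52, 4.45, 7.78 and 4.29 in the guard night libraries. In subsidiary cells they were 2.27, 41, 12.9 and 15.9 by day and 4.67, 14.1, 13.1 and 15.7 by night. Only the guard day libraries were high, and the other 3 groups overlapped near the bottom of the scale. Its change was 7.74 ± 0.86 in guard cells (adjusted p = 8.09e-05) and 0.17 in subsidiary cells, and the interaction was 7.57 ± 1.21 (n = 4 libraries per group, limma adjusted p = 0.0659, edgeR adjusted p = 0.0271). With 10 instead of 1 added to the counts (the pseudocount) the interaction was 6.03, so that its size depends on that choice.

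Zm00001d038907 was the gene of the 5 whose groups separated in opposite directions. Guard cells held 1034, 616, 844 and 464 by day and 121, 136, 378 and 66.9 by night. Subsidiary cells held 12.5, 87.4, 52.8 and 39.7 by day and 456, 162, 478 and 356 by night. Day and night libraries did not overlap in either cell type, with day above night in guard cells and night above day in subsidiary cells. The guard cell change of 2.30 ± 0.61 did not pass the test (adjusted p = 0.101), while the gene fell by day in subsidiary cells (−3.06 ± 0.61, adjusted p = 0.0148), a call lost without subsidiary night 1 or 3. Its interaction was 5.36 ± 0.87 (95% interval 3.54 to 7.18, adjusted p = 0.0659, DESeq2 adjusted p = 1.75e-05).

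The other three genes differed between day and night in subsidiary cells. Zm00001d004591 stood at 185, 266, 157 and 282 in subsidiary cells by day and 1062, 1037, 1084 and 1366 by night, against 1394, 2219, 989.9 and 1838 in guard cells by day and 612, 975, 1278 and 511 by night. Subsidiary day libraries were thus below all others. Its interaction was 3.34 ± 0.51 (adjusted p = 0.0659). Zm00001d018076 was at 0, 20, 6.47 and 15.9 in subsidiary cells by day and 321, 496, 627 and 611 by night, and Zm00001d018400 at 0, 18.9, 0 and 1.32 (day) and 443, 704, 729.6 and 287 (night). In guard cells both were detected in every library, between 81.5 and 451 for the former and between 29.2 and 513 for the latter, with overlap between day and night. The interactions were 6.93 ± 1.13 (adjusted p = 0.0659) and 7.98 ± 1.34 (adjusted p = 0.0807), and all 3 genes fell by day in subsidiary cells (adjusted p = 0.00138, 0.000365 and 0.000265). The fitted changes of Zm00001d018076 and Zm00001d018400 involve subsidiary day libraries at or near 0 and depend on the pseudocount.

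**Figure D2:**
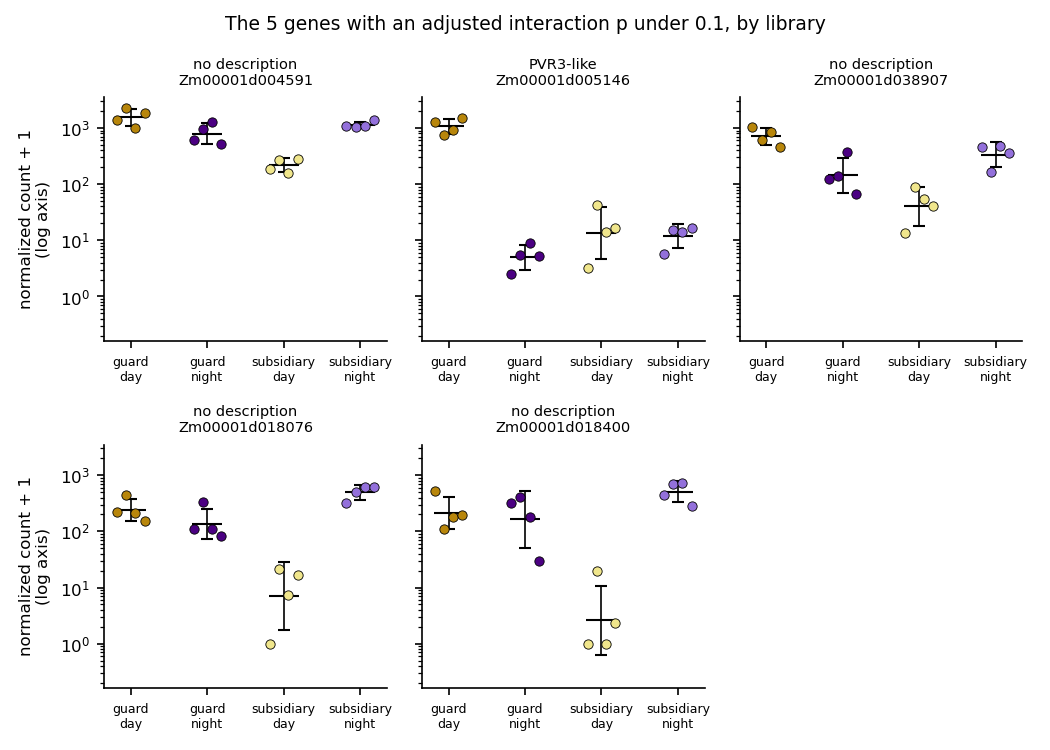
Normalized counts plus 1 (log axis) of the 5 genes with an adjusted interaction p under 0.1 are shown for each of the 16 libraries, with the bar and whiskers giving the mean and SD on the log scale in each group of 4. PVR3-like is high in the guard day libraries alone, and the other 4 have their lowest group mean in the subsidiary day libraries.

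Ranked genes had a description, a mean log2 of at least 5 and no overlap between day and night in at least 1 cell type. Separation of the libraries in 1 cell type is thus fixed by that choice. Among genes that met these conditions, the 12 of smallest interaction p above 0 were led by a hemoglobin-like gene, Zm00001d046472. Plant hemoglobins bind oxygen and take part in removing nitric oxide. It stood at 31.7, 92.6, 83 and 15.9 in subsidiary cells by day and 1314, 639, 376 and 556 by night, with no overlap. In guard cells it stood at 459, 1185, 579 and 552 by day and 1163, 76.8, 199.6 and 74.6 by night, where replicate 1 of the night libraries lay among the day libraries. It fell by day in subsidiary cells (−3.83 ± 0.75, adjusted p = 0.0124), a call lost without subsidiary day 4 or subsidiary night 1 and with edgeR (adjusted p = 0.0507). The guard cell change was 1.75 ± 0.75 (adjusted p = 0.42) and the interaction 5.58 ± 1.06 (adjusted p = 0.153, DESeq2 adjusted p = 0.0133). Without guard night replicate 1 the interaction was 6.44 and passed the limma test (adjusted p = 0.0309).

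Zm00001d006236, of the MYB family of transcription factors, fell by day in subsidiary cells (−4.11 ± 0.69, adjusted p = 0.00347). Its levels there were 148, 63.1, 16.2 and 87.3 by day and 405, 829.9, 1853 and 2035 by night. Guard cells held 1365, 966, 3033 and 1348 by day and 1251, 1419.6, 1401 and 228 by night. The subsidiary day libraries were the lowest of the 16, and guard night replicate 4 was the lowest guard cell library. The interaction was 4.92 ± 0.98 (adjusted p = 0.207, DESeq2 adjusted p = 0.000649).

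A histone gene, Zm00001d002601, and a nuclease gene, Zm00001d002035, had the same shape. Histones package DNA in the nucleus, and nucleases cut nucleic acids. The histone gene stood at 26.1, 255, 171 and 152 in subsidiary cells by day and 4748, 4833, 4984 and 6069 by night, and fell by day (−5.46 ± 0.84, adjusted p = 0.00155). In guard cells its levels were 2638, 1204, 1848 and 1569.6 by day and 3259.9, 8690.1, 5575 and 214 by night, overlapping through night replicate 4, with a change of −0.47 ± 0.84 (adjusted p = 0.908). Without both libraries of low correlation the guard cell change was −1.63 and passed the test (adjusted p = 0.0245), and the interaction was 3.13. The nuclease gene stood at 344, 220.0, 303 and 136 in subsidiary cells by day and 2310.1, 2126, 1610.0 and 1754 by night, where it fell by day (adjusted p = 0.00542), and its guard cell change was 0.12 ± 0.53 (adjusted p = 0.97). Their interactions were 4.99 ± 1.18 (adjusted p = 0.351) and 3.14 ± 0.76 (adjusted p = 0.351). A gene whose description begins with Heat, Zm00001d043536, also fell by day in subsidiary cells (−4.37 ± 0.86, adjusted p = 0.0124), from 854, 615, 638 and 874 by night to 45.3, 18.9, 274 and 5.29 by day, a call lost with edgeR (adjusted p = 0.128).

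In 2 of the 12 genes above 0 the guard cell change passed its test, also when any 1 library was left out. Zm00001d039499, described as ATP-dependent, was at 3373, 1552, 977 and 1969 in guard cells by day and 465, 403, 419 and 90.9 by night. In subsidiary cells it ranged from 362 to 481 by day and from 377 to 633 by night, with overlap. It rose by day in guard cells (2.61 ± 0.47, adjusted p = 0.00879) and its subsidiary cell change was −0.37 ± 0.47 (adjusted p = 0.856). Its interaction was 2.98 (adjusted p = 0.344, DESeq2 adjusted p = 0.0096), and 2.38 without both libraries of low correlation. The other was the aquaporin Zm00001d005421, described with its family below. Zm00001d002893, of a family related to WAT1, an auxin transporter of the vacuole in Arabidopsis, had a guard cell change of 2.95 ± 0.66 (adjusted p = 0.0397). That call was lost without guard day 1, 3 or 4, guard night 2, 3 or 4, subsidiary day 2 or 4 or subsidiary night 1, without both libraries of low correlation (adjusted p = 0.0967) and with edgeR (adjusted p = 0.104). The interaction of this gene was 4.01 (adjusted p = 0.351, DESeq2 adjusted p = 0.00399).

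The remaining 4 genes above 0 had no call in either cell type. NAC Zm00001d019207, of a plant transcription factor family, stood at 915, 519, 344 and 496 in guard cells by day and 434, 90.2, 85.5 and 31.7 by night, and at 198, 264, 32.3 and 105 (day) and 851, 338, 603 and 303 (night) in subsidiary cells. Fb14 Zm00001d031975 did not overlap between day and night in either cell type, at 556, 805, 518 and 1146 against 40.4, 419, 349.9 and 103 in guard cells and 48.7, 209, 73.3 and 205 against 661, 258, 646 and 783 in subsidiary cells. Its interaction was 4.45 ± 0.94 (adjusted p = 0.278, DESeq2 adjusted p = 0.0136). The gene described as Protein, Zm00001d038452, had an interaction of 4.08 ± 0.95 and the gene described as Fas-associated, Zm00001d048566, one of 3.33 ± 0.80 (adjusted p = 0.344 and 0.351).

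The 12 ranked genes below 0, chosen under the same conditions, were led by Zm00001d037949, whose description begins with 2C-type. It stood at 760.0, 6343, 3097 and 3309 in subsidiary cells by day and 38.9, 9.67, 30.5 and 200.4 by night. Guard cells held 797, 12.3, 201 and 17.5 by day and 119.7, 244, 127 and 116 by night, and the day libraries spread around the night libraries. Subsidiary cells had more by day (6.03 ± 1.08, adjusted p = 0.00611). The interaction was −6.90 ± 1.52 (adjusted p = 0.32, DESeq2 adjusted p = 0.0581).

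An E2F-DP gene, Zm00001d004512, had the smallest standard error of the 12. Factors of the E2F and DP families regulate the genes of DNA synthesis. Its levels were 5057, 2904, 5229.5 and 5148 in subsidiary cells by day and 740.5, 472, 380.1 and 452 by night. In guard cells they were 1295, 1069.7, 1709.6 and 1581 by day and 570.2, 577, 766 and 371 by night. Day lay above night without overlap in both cell types, by more in subsidiary cells (3.17 ± 0.33, adjusted p = 4.61e-05) than in guard cells (1.33 ± 0.33, adjusted p = 0.065). The interaction was −1.84 ± 0.46 (95% interval −2.81 to −0.87, adjusted p = 0.373, DESeq2 adjusted p = 0.0338).

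The same order of mean changes, toward day in both and by more in subsidiary cells, was seen for the Anther-specific gene Zm00001d018791, the Carboxypeptidase gene Zm00001d049055 and the ABC gene Zm00001d002871. Carboxypeptidases remove residues from the end of proteins, and ABC proteins are transporters driven by ATP. The Anther-specific gene stood at 1679.7, 5443, 2708 and 3389 in subsidiary cells by day and 141, 91.4, 124 and 17.1 by night, against 874, 455, 689 and 178 (day) and 361, 236, 166 and 50.6 (night) in guard cells. All 3 rose by day in subsidiary cells (changes of 5.36, 2.21 and 2.95, adjusted p = 0.000332, 0.00166 and 0.0019), and none passed the test in guard cells (changes of 1.51, 0.65 and 0.89). Their interactions were −3.84 ± 0.97, −1.56 ± 0.48 and −2.06 ± 0.65, and DESeq2 called the Anther-specific gene (adjusted p = 0.0174).

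Of the other 7 genes below 0, the F-box gene Zm00001d032889 had opposite changes. F-box proteins choose the targets of a class of ubiquitin ligases. Its levels were 135, 89, 28 and 200.1 in guard cells by day and 653, 180.4, 1695 and 177 by night, and 410.0, 168, 268 and 251 in subsidiary cells by day and 62.2, 64.2, 11.3 and 93.7 by night. Subsidiary day libraries lay above the night libraries without overlap, while guard cell libraries overlapped. The changes were −2.24 and 2.49 (adjusted p = 0.277 and 0.171), and the interaction was −4.73 ± 1.12 (adjusted p = 0.351, DESeq2 adjusted p = 0.00379). A Terpene gene, Zm00001d015234, and a Trihelix gene, Zm00001d043902, of a plant transcription factor family, rose by day in subsidiary cells (2.07 ± 0.42 and 2.37 ± 0.53, adjusted p = 0.0164 and 0.0331). The former call was lost without subsidiary day 2 or 3 or subsidiary night 1 or 4, and the latter without subsidiary day 2, 3 or 4 or subsidiary night 1, 2 or 3 and with edgeR (adjusted p = 0.0828). The MED26 gene Zm00001d023514, named for a subunit of the Mediator complex, Putative Zm00001d025921, Defective Zm00001d050440 and Tubulin Zm00001d008216 had interactions from −3.11 to −1.88 and no call in either cell type.

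**Figure D3:**
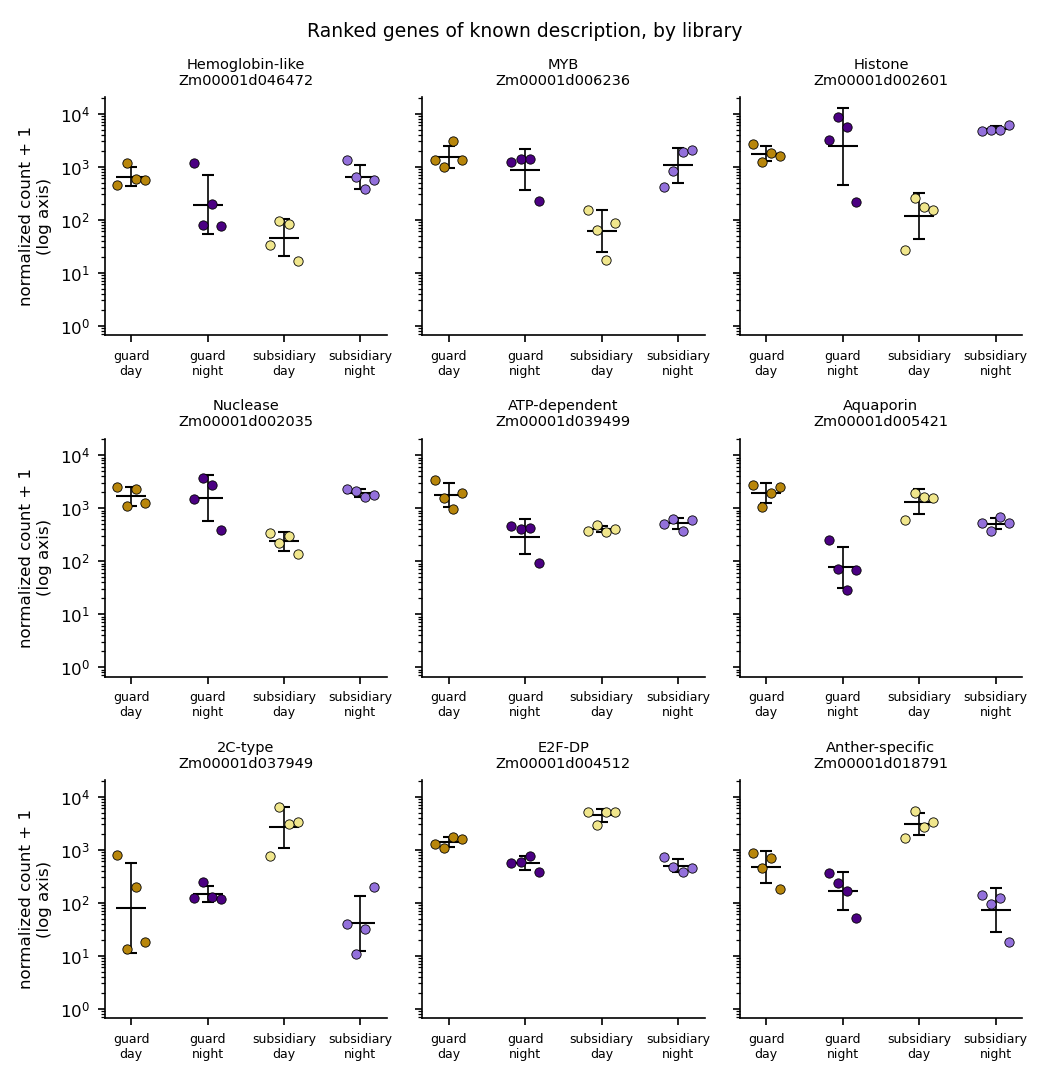
Normalized counts plus 1 (log axis) of 9 of the ranked genes are shown by library, with the mean and SD on the log scale in each group of 4. The upper rows hold genes with an interaction above 0 and the bottom row genes below 0. In each panel but that of the aquaporin, guard night replicate 4 is the lowest guard night library.

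Of the 43 genes called in guard cells with a change under 0.5 in subsidiary cells, the naming rule takes 5, picked for that pattern, and their values describe it. Beside the ATP-dependent gene these were Rhomboid-like Zm00001d052734, from a family of proteases that cut within membranes, AP2-EREBP Zm00001d002760, a transcription factor of the ethylene response family, AT-rich Zm00001d053396 and Zinc Zm00001d033446. Rhomboid-like stood at 3227, 5006, 4575 and 2977 in guard cells by day and 836, 1071, 739 and 345 by night, against 1164, 815, 232 and 282 (day) and 466, 573, 726 and 392 (night) in subsidiary cells. Guard day libraries were above all others, and subsidiary libraries overlapped. The AP2-EREBP gene stood at 465, 314, 614 and 406 in guard cells by day and 85.4, 54.6, 32.4 and 43.8 by night, against 232, 144, 66.8 and 39.7 (day) and 54.4, 126, 68 and 67 (night) in subsidiary cells. Interactions of these 4 genes were 2.55 ± 0.67, 2.70 ± 0.84, 2.72 ± 0.81 and 2.95 ± 0.79, with limma adjusted p from 0.399 to 0.541. Their guard cell calls were lost without guard day 3 (Rhomboid-like), guard day 1 or 3 (AP2-EREBP), guard day 1 or 3 or guard night 1 or 3 (AT-rich) or guard day 1 or 3 or guard night 3 or 4 (Zinc). With edgeR the calls of AT-rich and Zinc were lost (adjusted p = 0.119 and 0.0989).

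The 5 that the rule takes from the 66 genes called in subsidiary cells with a change under 0.5 in guard cells were, beside the histone, nuclease and Terpene genes, Reticulon-like Zm00001d038768 and 40S Zm00001d019147. Reticulons shape the membrane of the endoplasmic reticulum, and 40S marks a protein of the small ribosomal subunit. Reticulon-like stood at 86.1, 190.5, 145 and 142 in subsidiary cells by day and 625, 1313, 1181 and 1196 by night, against 413, 233, 754 and 298 (day) and 947, 675, 373 and 189 (night) in guard cells. The 40S gene stood at 35.1, 189, 40.9 and 60.9 in subsidiary cells by day and 1141, 792, 404 and 756 by night, against 280.3, 76.7, 566 and 159.9 (day) and 369, 428, 376 and 111 (night) in guard cells. In both genes the subsidiary day and night libraries did not overlap, and the guard cell libraries did. They fell by day in subsidiary cells (−2.93 ± 0.49 and −3.48 ± 0.65, adjusted p = 0.00347 and 0.00838), and the interactions were 2.66 ± 0.70 and 3.05 ± 0.92 (adjusted p = 0.395 and 0.532).

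Of the 12 genes whose libraries separated in opposite directions in both cell types, 8 were higher by day in guard cells and 4 higher by night, and 3 have a description. Besides Fb14 these were HB Zm00001d030191 and AN15 Zm00001d020926, named after their values were seen. HB stood at 455, 468, 570.5 and 315 in guard cells by day and 142, 275, 250.1 and 150.1 by night, against 19.3, 454, 242 and 221 (day) and 672, 707, 474 and 592 (night) in subsidiary cells. AN15 stood at 817, 627, 1216 and 729 in guard cells by day and 209.7, 576, 613 and 65.2 by night, against 10.2, 438, 454 and 308 (day) and 596, 894, 2121 and 502 (night) in subsidiary cells. The gaps between groups were narrow, subsidiary day replicate 1 lay far below the other day libraries in both, and the interactions were 3.19 ± 0.94 and 4.05 ± 1.32 (adjusted p = 0.514 and 0.559), or 2.10 and 2.10 without both libraries of low correlation.

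The genes most firmly called in both cell types give a measure of what was shared. Chlorophyll Zm00001d021784, with a word that opens names of chlorophyll-binding proteins, was at 4598, 3146, 4055 and 4066 in guard cells by day and 113, 132, 70 and 54 by night. In subsidiary cells it was at 953, 1656, 2399 and 1948 by day and 145, 66.8, 318 and 91.7 by night. Both cell types had more by day, by 5.48 ± 0.45 and 3.65 ± 0.45 (adjusted p = 3.18e-06 and 0.00026). Potassium Zm00001d044717, named for potassium transport, stood at 13681, 3764, 5949 and 5647 in guard cells by day and 711, 836, 929 and 712 by night, and at 24366, 89624, 37663 and 44983 (day) and 3184, 2785, 3829 and 2014 (night) in subsidiary cells. This gene rose by day by 3.02 ± 0.42 and 3.93 ± 0.42 (adjusted p = 0.000739 and 5.42e-05), with an interaction of −0.91 ± 0.59 (95% interval −2.15 to 0.33). Putative Zm00001d049543, Leaf Zm00001d006184 and Chlorophyll Zm00001d039040 rose by day in both as well, with interactions of 1.42 ± 0.58, −0.68 ± 0.47 and −0.21 ± 1.19. The last of these turned its sign under 4 of the alternatives.

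Genes with the word Chlorophyll were taken as chlorophyll-binding genes of light harvesting, though the word alone does not identify them. Those called were higher by day in both cell types. Of 30 genes described as Chlorophyll, 11 were called higher by day in guard cells against a background of 0.747%, and 5 in subsidiary cells against 0.673%, with 4 called in both and 0 called higher by night. DESeq2 called 14 and 12, edgeR 8 and 4, and the difference between these counts was not tested. Guard cells had a median change of 3.86 and subsidiary cells one of 2.95, beside −0.01 and −0.03 over all genes, and with edgeR the medians were 2.93 and 2.72. The median interaction was 1.43, from 0.96 to 1.96 over the alternatives, 6 members had an unadjusted p under 0.05 above 0 and 0 below (4.03% and 2.68% of all genes), and 0 passed the adjusted test.

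The genes of the family with the smallest interaction p were Zm00001d021763 and Zm00001d009589. The former stood at 4950.3, 1705, 2532 and 3372 in guard cells by day and 749, 1322, 444 and 44.6 by night, and at 245, 939.8, 1303 and 879.9 (day) and 1615, 1785, 2035 and 858 (night) in subsidiary cells, so that guard day libraries were above guard night libraries while subsidiary libraries overlapped. Its interaction was 4.01 ± 1.07 (adjusted p = 0.4), and 2.48 without both libraries of low correlation. The latter stood at 4703, 1553, 3658 and 1443 in guard cells by day and 31.3, 0, 6.48 and 16.3 by night, and at 629.7, 228, 2768 and 2060.2 (day) and 29.6, 66.8, 676 and 31.5 (night) in subsidiary cells. The latter rose by day in guard cells (8.28 ± 1.06, adjusted p = 0.000376), and in subsidiary cells its change was 3.54 ± 1.06 (adjusted p = 0.139). Its interaction of 4.74 was not called under any alternative.

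Of 46 genes named for the photosystems and electron transport, 37 had an interaction above 0 (51.0% of all genes did), with a median of 1.45 (1.85 for guard and 0.36 for subsidiary cells). Photosystem alone names 24 of them, of which 23 had an interaction above 0, 2 were called higher by day in guard cells (0.747% of all genes) and 1 in subsidiary cells (0.673%), while DESeq2 called 5 and 2. Photosystem Zm00001d018797 was at 6539, 6521, 9009 and 7356 in guard cells by day and 332, 23.4, 110.1 and 16.3 by night, and at 2862, 1504, 5711 and 2685 (day) and 359, 249.7, 295 and 473 (night) in subsidiary cells. Its groups did not overlap in either cell type, and it rose by day by 6.86 ± 0.66 in guard cells (adjusted p = 1.75e-05) and by 3.09 ± 0.66 in subsidiary cells (adjusted p = 0.0245), the latter call being lost without subsidiary day 1, 3 or 4 or subsidiary night 1, 2 or 3. Its interaction was 3.77, and 3.15 without both libraries of low correlation, and was not called under any alternative. Photosystem Zm00001d034283 rose by day in guard cells (2.79 ± 0.60, adjusted p = 0.0271), a call lost without guard day 1 or 3 or guard night 1, 2 or 3, and its subsidiary cell change was 0.09 ± 0.60. Its interaction of 2.70 was not called under any alternative.

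This group was among those that moved with the libraries of low correlation. Without guard night replicate 4 the median interaction of the photosystem and electron transport genes was 0.76, without subsidiary day replicate 1 it was 0.99, and without both it was 0.40, while edgeR gave 0.61. Without both, the chlorophyll-binding median was 1.37. The list of mesophyll C4 names held 6 genes, 5 with the word Carbonic and 1 with Phosphoenolpyruvate, words that alone do not identify C4 enzymes. The mean over the list was higher by day in both cell types, though 4 of the 6 genes had changes of opposite sign (43.7% of all genes did). In subsidiary cells the list mean ran from 6.73 to 9.88 in the day libraries and from 7.47 to 8.07 in the night libraries, with overlap. Of the 6 genes 2 were nominal for the interaction above 0 and 1 below, beside 4.03% and 2.68% of all genes. Their summed share of the counts was 0.0285% to 0.0481% in guard cells by day, 0.00751% to 0.0216% by night, 0.00566% to 0.0269% in subsidiary cells by day and 0.0135% to 0.0186% by night. None of the 6 was called in either cell type, and their part in the result was not tested. In the Calvin cycle list Fructose-bisphosphate Zm00001d023559 had the smallest interaction p. It stood at 2153, 1086, 6251 and 792 in guard cells by day and 261, 296, 156 and 90.9 by night, and at 172, 42.1, 499 and 75.4 (day) and 383, 113, 308 and 131 (night) in subsidiary cells (interaction 4.0 ± 1.03, adjusted p = 0.385, DESeq2 adjusted p = 0.0372).

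**Figure D4:**
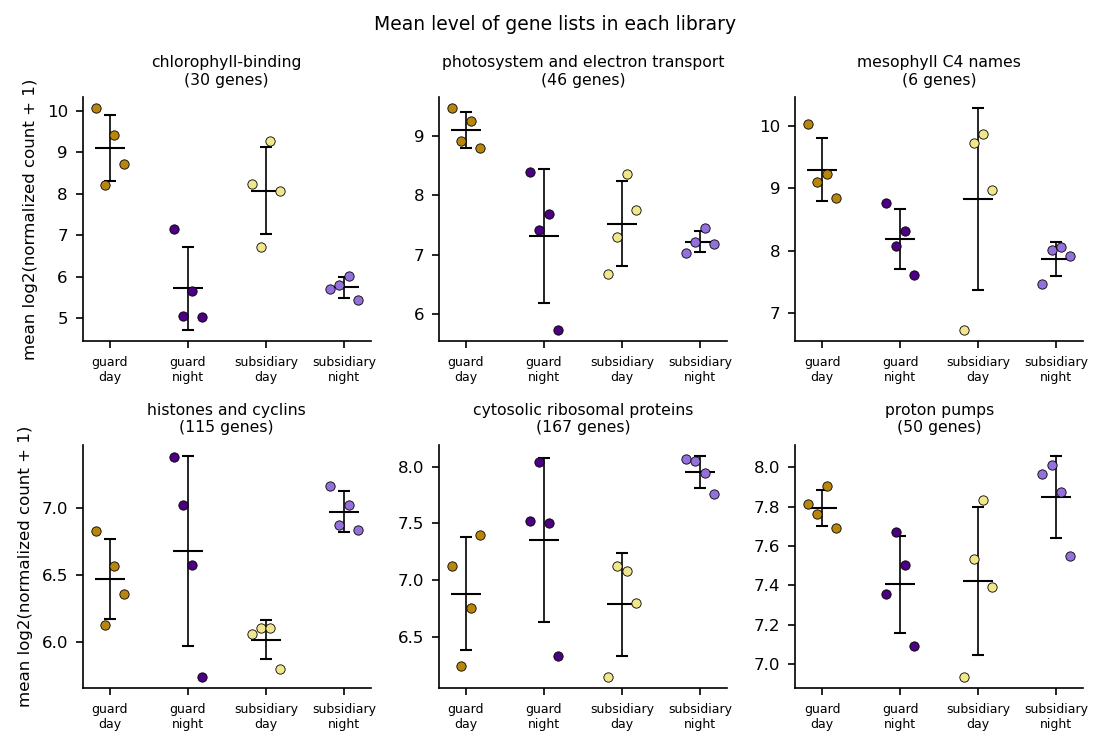
Each point is the mean log2(normalized count + 1) over the genes of a list in 1 library, with the mean and SD of each group of 4. Chlorophyll-binding genes are higher by day in both cell types, histones with cyclins and ribosomal proteins have their highest group mean in subsidiary cells by night, and guard night replicate 4 is the lowest guard night library in each panel.

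Calls among histone genes fell in subsidiary cells and were nearly all toward night. Of 90 genes described as Histone, 11 were called higher by night and 1 higher by day in subsidiary cells, against a background of 0.548% and 0.673%, and 0 were called in guard cells. Their median change was −1.09 in subsidiary cells and −0.31 in guard cells. The median interaction was 0.86, 17 members had an unadjusted interaction p under 0.05 above 0 and 2 below, against 4.03% and 2.68% of all genes, and 0 passed the adjusted test. With any 1 library left out 6 to 12 were called higher by night in subsidiary cells, fewest (6) without subsidiary night replicate 1, 2 or 3, and 7 without subsidiary night replicate 4 or subsidiary day replicate 4. edgeR called 7 and DESeq2 14.

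Histone Zm00001d034479 followed Zm00001d002601 in the list. It was at 73.6, 111, 101.3 and 76.7 in subsidiary cells by day and 758, 1791, 1931 and 1696 by night, and at 572, 205, 242 and 295 in guard cells by day and 638, 1634, 566 and 154 by night. It fell by day in subsidiary cells (−4.01 ± 0.56, adjusted p = 0.000671), and its guard cell change was −0.86 ± 0.56 (adjusted p = 0.656). Guard night replicate 4 was below the guard day libraries in both histone genes. Without it the median histone change in guard cells was −0.73 and the median interaction 0.58, and without it and subsidiary day replicate 1, 3 histone genes were called higher by night in guard cells. Histone genes are many and alike in sequence, so that reads may be split among copies. Of the cell cycle names in the same list, the E2F-DP gene went the other way, and the median interaction was −2.54 over 2 genes described as Proliferating, −0.53 over 5 described as Cyclin-dependent and 0.02 over 5 described as Cyclin.

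Genes for cytosolic ribosomal proteins, 78 named 40S and 89 named 60S, had median changes below 0 in both cell types, of −0.98 in subsidiary cells and −0.38 in guard cells. Of the 167, 2 were called higher by night in each cell type, none in both, and 0 higher by day, beside 0.119% (guard) and 0.548% (subsidiary) of all genes called higher by night. DESeq2 called 3 and 10 higher by night and edgeR 0 and 1. The median interaction was 0.65, with 16 nominal members above 0 and 3 below, beside 4.03% and 2.68% of all genes. Without guard night replicate 4 and subsidiary day replicate 1 it was 0.10, with 11 above and 9 below. 40S Zm00001d044664 had the smallest p of the list, with an interaction of 2.86 ± 0.84 (adjusted p = 0.507), at 56.6, 66.3, 133 and 63.5 in subsidiary cells by day and 432, 334, 125 and 468 by night.

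Proton pump names mostly had an interaction above 0, and none passed its adjusted test. Of 50 genes named H+-translocating, Plasma, V-type or Vacuolar, 36 had an interaction above 0 (51.0% of all genes did). The median change was 0.43 among guard cells and −0.42 among subsidiary cells. Changes of opposite sign were seen in 20 of the 50, beside 43.7% of all genes. The word Plasma also stands for proteins other than pumps, and the word Vacuolar alone does not identify a pump either. An unadjusted interaction p under 0.05 was reached by 8 members, all above 0 (4.03% of all genes). The median interaction of 0.60 ranged from 0.44 to 0.81 over the alternatives, the latter over the 41 genes with a mean value of at least 100. V-type names had a median interaction of 1.04 over 14 genes, from median changes of 0.96 (guard) and −0.43 (subsidiary). Vacuolar names had 0.85 over 19 genes. Plasma names had 0.25 over 16 genes, with median changes of −0.01 and −0.42, and the 1 gene named H+-translocating had −1.08. The vacuolar proton pump acidifies the vacuole, and the plasma membrane pump drives solute uptake into the cell.

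In the list 1 gene was called within a cell type. Plasma Zm00001d050214 was at 3259, 3829, 1509 and 2358 in guard cells by day and 1038, 1003, 659.6 and 426 by night, and at 471, 333, 322 and 202 (day) and 299, 340.2, 285 and 190.1 (night) in subsidiary cells. Guard day libraries were the highest of the 16, and subsidiary libraries overlapped. It rose by day in guard cells (1.81 ± 0.39, adjusted p = 0.0303), a call lost without guard day 1, 2 or 4 or guard night 3 or 4 and without both libraries of low correlation (adjusted p = 0.0518), and its subsidiary cell change was 0.22 ± 0.39. Its interaction of 1.59 was not called under any alternative. Vacuolar Zm00001d034492 stood at 681, 601, 275 and 504 in guard cells by day and 141, 403, 546 and 393 by night, and at 168, 188, 248 and 331 (day) and 796, 451, 435 and 483 (night) in subsidiary cells, with an interaction of 1.77 ± 0.63 (adjusted p = 0.63).

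Aquaporins, the subject named by the series title, had calls toward day alone. Of 21 genes described as Aquaporin, 4 were called higher by day in guard cells (0.747% of all genes) and 1 in subsidiary cells (0.673%), none in both, and 0 higher by night. These counts were 5 and 5 with DESeq2, 3 and 1 with edgeR, 4 and 4 with quality weights and 3 and 4 without both libraries of low correlation, and the difference between them was not tested. Guard cells had a median change of 1.10 and subsidiary cells one of 0.82. The median interaction of 0.25 ran from −0.05 to 0.77 over the alternatives that keep all 21 genes. It was 1.54 over the 12 genes with a mean value of at least 100. An unadjusted interaction p under 0.05 was reached by 4, all above 0 (4.03% of all genes), and 8 of the 21 had changes of opposite sign, beside 43.7% of all genes. The description word does not set plasma membrane aquaporins apart from those of the vacuole.

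Zm00001d005421 had the smallest interaction p in the family, and its interaction did not pass the adjusted test. It stood at 2741, 1048, 1972 and 2461 in guard cells by day and 251, 69, 27.2 and 66.1 by night. In subsidiary cells it stood at 589, 1969, 1636 and 1576 by day and 521, 367, 675 and 531 by night. Guard night libraries were the lowest of the 16, day lay above night without overlap in guard cells, and subsidiary libraries separated but for day replicate 1. In guard cells it rose by day (4.67 ± 0.54, adjusted p = 0.000146), its subsidiary cell change was 1.36 ± 0.54 (adjusted p = 0.314), and its interaction was 3.31 ± 0.77 (95% interval 1.70 to 4.92, adjusted p = 0.344, DESeq2 adjusted p = 0.0595).

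Zm00001d003006 was at 1607, 948, 2875 and 610.0 in guard cells by day and 18.3, 1.11, 16.8 and 43.8 by night, with no overlap, and at 1.13, 40, 651 and 51.6 (day) and 92.6, 1.76, 40.1 and 28 (night) in subsidiary cells. The guard cell change of 6.57 ± 1.39 passed the test (adjusted p = 0.0255), a call lost without guard day 1, 2 or 3 or guard night 1, 2 or 3 and with edgeR (adjusted p = 0.0615). The interaction of this gene was 5.75, and 4.90 without both libraries of low correlation, and was not called under any alternative. The other guard cell calls were Zm00001d051174 (4.58 ± 0.77, adjusted p = 0.00492), with a subsidiary cell change of 2.95 ± 0.77 that edgeR called (adjusted p = 0.0351) and limma did not (adjusted p = 0.0743), and Zm00001d051872 (3.76 ± 0.86, adjusted p = 0.0448), whose call was lost without guard day 1, 3 or 4, guard night 1, 2, 3 or 4, subsidiary day 2 or 4 or subsidiary night 1 or 3. Without both libraries of low correlation the interactions of this pair were 0.59 and 0.91, from 1.63 ± 1.09 and 1.45 ± 1.22. The single subsidiary cell call was Zm00001d019563, at 2116, 926, 7802 and 2650.3 in subsidiary cells by day and 42, 0.879, 113 and 267 by night, and at 700.3, 17.8, 1472 and 137 (day) and 40.4, 56.8, 38.9 and 12 (night) in guard cells. In subsidiary cells it rose by day (5.99 ± 1.32, adjusted p = 0.0282), a call lost without subsidiary day 1, 3 or 4 or subsidiary night 1 or 2 and with edgeR (adjusted p = 0.0788). Its guard cell change was 2.77 ± 1.32 and its interaction −3.22 ± 1.87 (adjusted p = 0.801).

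Other aquaporins did not pass the test in either cell type. Zm00001d028951 stood at 517, 137, 139 and 208 in guard cells by day and 78.5, 137, 71.3 and 105 by night, and at 102, 129, 89.4 and 134 (day) and 479.9, 264, 168 and 94.4 (night) in subsidiary cells (interaction 2.07 ± 0.79, adjusted p = 0.656). Zm00001d016237 stood at 18.1, 66.3, 79.7 and 11.9 in subsidiary cells by day and 121, 58.9, 360.0 and 256 by night, with an interaction of 2.42 ± 1.11 (adjusted p = 0.728). Zm00001d010410 held 4651, 5692, 7614 and 5895 in guard cells by day and 6093, 9086, 14068 and 711 by night, and 4954, 8935, 5359.9 and 13581 (day) and 4766, 6632, 6849 and 10815 (night) in subsidiary cells. Its groups overlapped throughout, its interaction was 0.16 ± 0.92, and the sign turned under 8 alternatives, so that no direction can be given. Zm00001d051362, Zm00001d044826, Zm00001d032461 and Zm00001d027652 also turned sign under at least 2 alternatives, and the remaining named members, Zm00001d049578, Zm00001d017526 and Zm00001d010325, had interactions of −1.25 ± 0.98, −0.73 ± 0.91 and 2.04 ± 1.10 (adjusted p from 0.784 to 0.928).

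The 31 potassium transport names had a median interaction of −0.11 (−0.25 to 0.08 over the alternatives). Of these genes 1 was nominal above 0 and 2 were nominal below, beside 4.03% and 2.68% of all genes. The smallest p was that of Potassium Zm00001d049987, with an interaction of −1.62 ± 0.73 (adjusted p = 0.724). Chloride and anion channel names (9 genes) had a median of 0.21, malic enzyme names (9) 0.51 and sugar transporter names (29) 0.27, and each of these medians turned below 0 under at least 1 alternative.

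Among names of hormone response and transcription, members differed one by one. The 130 auxin names had a median interaction of −0.03, with 11 nominal members above 0 and 3 below, beside 4.03% and 2.68% of all genes. Auxin-responsive Zm00001d041416 stood at 1171, 1754, 1108 and 1161 in guard cells by day and 378, 411, 601 and 265 by night, and at 641, 389, 274 and 294 (day) and 498, 427, 480.3 and 365 (night) in subsidiary cells, with guard day libraries above all others. This gene rose by day in guard cells (1.68 ± 0.35, adjusted p = 0.0242), a call lost without guard day 1, 2, 3 or 4 or guard night 1, 2 or 4, and its interaction was 1.90 ± 0.50 (adjusted p = 0.395). TIFY18 Zm00001d013331, of the family that holds repressors of jasmonate signalling, had day minus night values of 1.85 (guard) and −1.53 (subsidiary), neither passing its test (interaction 3.39 ± 0.91, adjusted p = 0.405, DESeq2 adjusted p = 0.0275). The 5 abscisic acid names all had an interaction above 0 (51.0% of all genes did), with a median of 2.39. Their lead gene, Abscisic Zm00001d004843, stood at 13082, 6847, 9220.5 and 5426 in guard cells by day and 4589, 13438, 3685 and 779.8 by night, and at 2434, 7653, 3433 and 3906 (day) and 7604, 9055, 8806 and 12270.2 (night) in subsidiary cells (interaction 2.39 ± 0.85, adjusted p = 0.63, and 1.41 without both libraries of low correlation). Groups overlapped in guard cells, and in subsidiary cells day replicate 2 reached the night libraries.

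Of the 16 clock and photoperiod names 1 was called higher by day in guard cells (0.747% of all genes) and 0 in subsidiary cells (0.673%). Their median interaction was 0.65 (0.15 to 0.89 over the alternatives). An unadjusted interaction p under 0.05 was reached by 3 above 0 and 0 below, beside 4.03% and 2.68% of all genes. C2C2-CO-like Zm00001d046925, of the CONSTANS-like zinc finger family, was at 10867, 4332, 8211 and 7377 in guard cells by day and 986, 1112, 1562 and 222 by night, and at 3033, 3349, 6223 and 2878 (day) and 880.5, 1419, 1504 and 1124 (night) in subsidiary cells. Day lay above night without overlap in both cell types. In guard cells it rose by day (3.22 ± 0.48, adjusted p = 0.00166), its subsidiary cell change was 1.61 ± 0.48 (adjusted p = 0.141), and the interaction was 1.61 ± 0.69 (adjusted p = 0.692). Without both libraries of low correlation the subsidiary cell change was called (adjusted p = 0.0166) and the interaction was 0.91. Glutathione Zm00001d024839 led the list of peroxidase and glutathione names, in guard cells at 1637, 1335, 1852 and 1798 by day and 19.1, 215, 36.3 and 6.86 by night. It stood at 4.53, 372, 303 and 201 in subsidiary cells by day and 696, 119.6, 139 and 83.4 by night, with overlap. The gene rose by day in guard cells (5.61 ± 1.12, adjusted p = 0.0171), a call lost without guard day 1, 3 or 4 or guard night 1 or 4 and with edgeR (adjusted p = 0.0812). Its interaction was 6.36, and 4.24 without both libraries of low correlation, and was not called under any alternative.

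**Figure D5:**
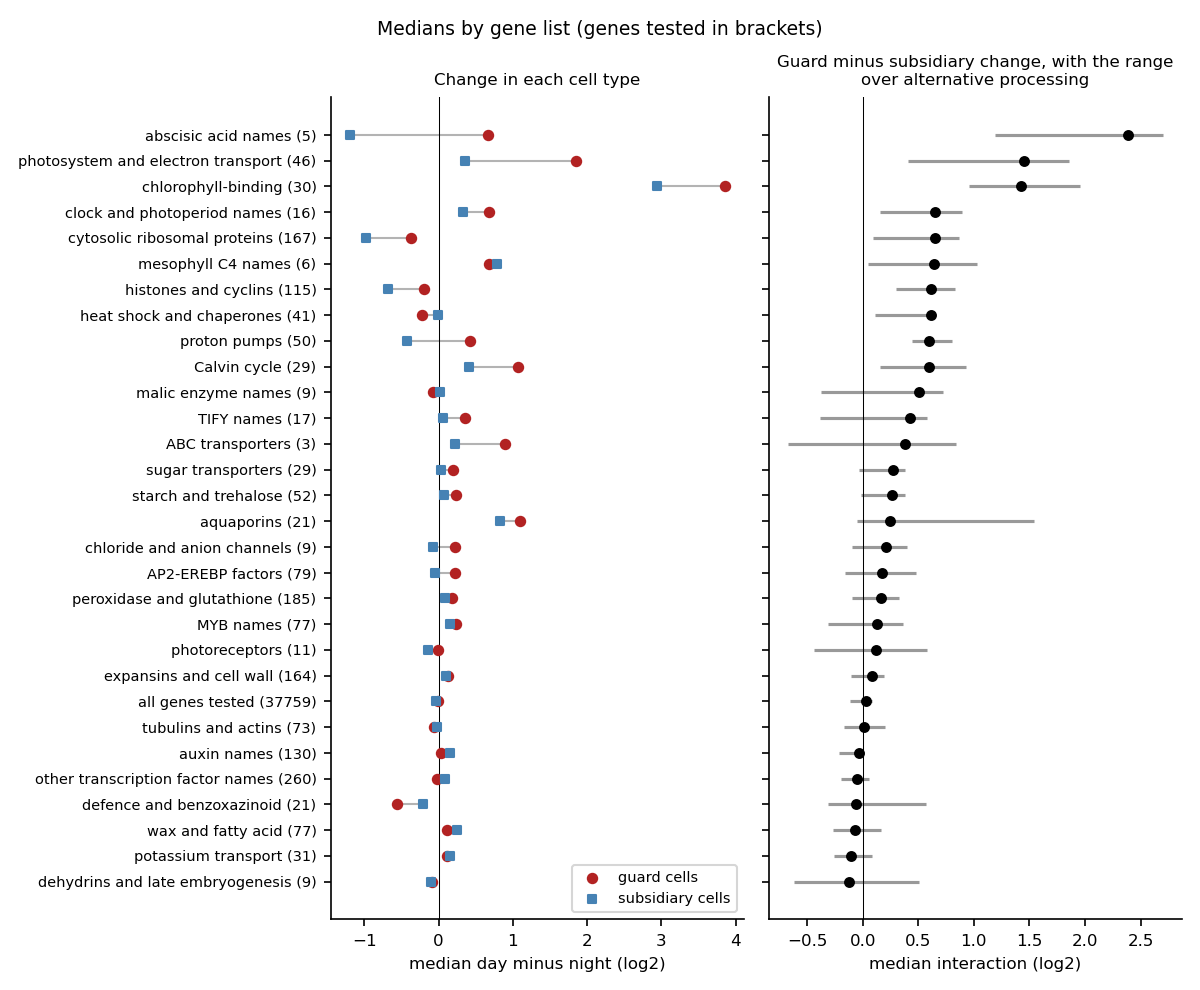
For each gene list, with the number of tested genes in brackets, the left panel gives the median day minus night change (log2) in guard cells (circles) and subsidiary cells (squares). The right panel gives the median interaction (log2) as points, with lines from the lowest to the highest value over the alternatives. The alternative with a mean value of at least 100 can hold fewer genes of a list. The whole line lies above 0 for the chlorophyll-binding, photosystem, proton pump, histone, clock, Calvin cycle, mesophyll C4, abscisic acid, heat shock and cytosolic ribosomal lists.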

How the data were processed

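Per the labels' protocols, about 10 pg of RNA per sample was amplified (SMART-Seq v4) and 150 ng of the cDNA made into libraries with Nextera XT. Strand is not kept and molecules are not tagged, so overlapping genes cannot be told apart. The deposited normalized counts (a signal) are the counts of each gene over the authors' size factor of the library, and 100% of the values were whole reads within 0.01. The deposited log2 fold changes (a score, shrunken for most genes) and adjusted p-values come from the authors' DESeq2 1.40.2 with B73 RefGen v4, per the submitters' processing notes. The aligner is not given in the sources used here. Titles of the subsidiary night samples carry a day-like word, and they were grouped as night by library name and treatment label.

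limma-trend (limma 3.58.1, R 4.3.3) was fitted to log2(value + 1) with 4 group means over 16 libraries (12 residual degrees of freedom). The Benjamini-Hochberg adjusted p of a called gene is under 0.05. A tested gene has a value of at least 10 in 4 or more libraries (37759, with 420 left out). edgeR 4.0.16 and DESeq2 1.42.0 on recovered reads, other scalings, filters and pseudocounts, and fits without single libraries were alternatives. The labels name independent collections, and p-values measure the spread between them.

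Named genes were the 12 described genes per direction of smallest interaction p, with a mean log2 of at least 5 and no overlap between day and night in at least 1 cell type, up to 5 genes per pattern, the leading gene of each of 29 lists, and aquaporins of that level. Lists were built from the deposited description's opening word and revised after the words were seen. The members and lists were chosen with earlier results of these data known. Genes outside the rule are named as such or are list members of small p. None of the identifiers matched the reference gene table, which uses another assembly, so no sequence or coordinate is given.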

Additional observations from a re-analysis of the deposited data

Results flagged for a closer look

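In groups of 4 libraries, single libraries of named genes stood far from the other three, by a test that flags about 5% of such groups by chance, and 20 of the 352 groups checked were flagged. Guard night replicate 4, a library of low correlation, was the low value for MYB Zm00001d006236 (228), ATP-dependent Zm00001d039499 (90.9), 40S Zm00001d019147 (111) and Carbonic Zm00001d044096 (288). Subsidiary day replicate 1, the other such library, was the low value for Glutathione Zm00001d024839 (4.53) and AN15 Zm00001d020926 (10.2).

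Among the other guard cell libraries, 2C-type Zm00001d037949 was high in night replicate 2 (244), Auxin-responsive Zm00001d041416 high in day replicate 2 (1754), Tubulin Zm00001d053102 low in day replicate 4 (302) and 40S Zm00001d013282 low in day replicate 2 (53.4). Among the other subsidiary cell libraries, day replicate 3 was low for WAT1-related Zm00001d002893 (58.2), and day replicate 2 was low for E2F-DP Zm00001d004512 (2904) and for Pathogenesis-related Zm00001d018322 (14.7). Night replicate 1 was low for Reticulon-like Zm00001d038768 (625), PVR3-like Zm00001d005146 (4.67) and Histone Zm00001d034479 (758). Night replicate 2 was low for Cellulose Zm00001d034770 (953), and night replicate 4 was high for Zm00001d004591 (1366).

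Of the library measures, subsidiary night replicate 4 held the most recovered reads of its group (28.9 M), and guard day replicate 1 had the highest mean Spearman correlation of its group (0.755).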

How the results depend on the processing

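The count of 0 genes for the interaction stayed at 0 without a filter on low values, with a mean value of at least 100, with upper-quartile or TMM scaling, with quality weights, with the replicate block and without both libraries of low correlation. It was 4 with a pseudocount of 10, 1 with edgeR and 149 with DESeq2, and the cause was not tested. Without any 1 library it ran from 0 to 6. Hemoglobin-like Zm00001d046472 was called without guard night replicate 1. Leaving out guard night replicate 2 called Zm00001d007394 (adjusted p = 0.0200), and leaving out guard night replicate 3 called Zm00001d038907 and Zm00001d004591. Leaving out subsidiary day replicate 1 called Zm00001d018076, and leaving out subsidiary day replicate 2 called 6 genes (the 5 genes of lowest p and Repressor Zm00001d052621, adjusted p = 0.0374).

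The 327 guard cell calls became 196 with edgeR, 1095 with DESeq2 and 182 to 384 without any 1 library, with 194 and 182 without guard day replicate 1 and 3. The 45 guard cell genes higher by night became 106 without guard night replicate 4, and 18 with guard night replicate 2 or 3 left out. The 461 subsidiary cell calls became 1334 with DESeq2 and 235 to 643 without any 1 library, with 258 without subsidiary day replicate 4. Leaving out subsidiary night replicate 1, 2, 3 and 4 gave 235, 246, 273 and 292. Without both libraries of low correlation the counts were 458 and 612.

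Across the 24 pairs of libraries that share a replicate number, deviations from the group means correlated at −0.061 to 0.079, and 5 of 16 libraries correlated best with their own number, so the numbers were not taken to pair the samples. With the replicate block 0 genes were called for the interaction, 305 in guard cells and 386 in subsidiary cells.

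Of single genes, 6 turned sign, and their ranges without any 1 library were wide. Chlorophyll Zm00001d039040 was 0.22 with a pseudocount of 10 and ran from −0.90 to 0.84 without single libraries. Aquaporin Zm00001d051362 was −0.12 with edgeR and with DESeq2 and ran from −0.082 to 1.35, and Zm00001d044826 was −0.47 with both tools and ran from −0.26 to 1.05. Zm00001d032461 ran from −0.25 to 1.11, and Zm00001d027652 from −1.83 to 0.37. Zm00001d010410 was −0.48 with edgeR, −0.50 with DESeq2, −0.67 with quality weights and −0.96 without both libraries of low correlation, and ran from −0.76 to 0.67. The other alternatives for named genes kept the sign, and 32 crossed the threshold, 18 of them with DESeq2. The spread between the 4 libraries of a group sets the width of the intervals.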
